A study of Rattus norvegicus with 4 samples.

Results

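Potassium channel genes were compared between primary hippocampal neuron cultures of rat embryos that received an shRNA against Gld2 and cultures that received a scrambled shRNA. Genes were taken as members when the platform annotation gave a single symbol made of Kcn, a family letter or letters and a number. By this rule 83 genes were found among the 14497 genes of the array, on 85 probe sets. There were 2 Gld2 shRNA cultures and 2 scrambled shRNA cultures, with 1 whole-transcript array each, and all 4 were transduced. Gld2 (gene symbol Tent2) is a cytoplasmic poly(A) polymerase, and the title gives the purpose as profiling poly(A) RNA after its knockdown. Because RNA was collected by heat elution from poly(U) Sepharose, a lower amount of a transcript and a lower recovery by its tail cannot be told apart. Neither the vector, nor the promoter driving the shRNA, nor the origin of replicate cultures is given in the sources. The p-values therefore reflect spread among 4 cultures, some of which may be technical.

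Potassium channels let potassium leave the cell along its gradient, which sets the resting potential, repolarises action potentials and limits repetitive firing. Most channels are built from pore subunits of the voltage-gated, inward-rectifying, leak or ion-activated families, many of which mix within a family, and auxiliary subunits change their gating and traffic. In hippocampal neurons different families act in different places, with Kcna channels in axons, Kcnd channels in dendrites and Kcnq channels at the start of the axon.

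The targeted transcript was lower in the knockdown cultures. Tent2 had log2 RMA values of 9.50 and 9.35 in Gld2 shRNA cultures, against 10.73 and 10.67 in scrambled shRNA cultures, a log2 difference of -1.28 (adjusted p = 0.000754, limma). The 4 array medians ran from 8.41 to 8.48. Against either control array, Gld2 shRNA replicate 2 had a median absolute log2 difference over all probe sets of 0.158 to 0.172, and Gld2 shRNA replicate 1 of 0.105 to 0.109. Gld2 shRNA replicate 2 also had the highest median and the narrowest range. Its standard deviation over genes was 1.89, against 1.95 to 1.96 in the other arrays. The label of hippocampal neurons was checked with markers. The 8 measured pan-neuronal markers had group means from 10.98 to 13.33. No member passed the threshold, but 7 of the 8 were below 0, 2 of them at an unadjusted p under 0.05 (limma). The astrocyte marker Gfap had means of 13.29 and 13.18 in Gld2 shRNA and scrambled shRNA cultures. Summed on the linear scale, pan-neuronal markers stood at log2 values of 15.76 and 15.76 in Gld2 shRNA cultures and 15.81 and 15.81 in scrambled shRNA cultures.

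The potassium channel genes that passed the threshold were all lower after knockdown, and came from most of the channel families. Of the 83 members, 10 were lower in Gld2 shRNA cultures by limma, with p-values adjusted by Benjamini-Hochberg over all genes and a threshold of 0.05. Over all 14497 genes, 2.41% were lower and 4.1% were called in either direction. No filter on low values was used, so all 83 entered the test. None was higher, against 1.69% of all genes, and 73 did not pass. At an unadjusted p under 0.05, 29 members were lower and 7 higher, where the shares over all genes were 16.2% and 9.24%. The groups did not overlap, with Gld2 shRNA lower, in 45 members (34.5% of all genes), and did not overlap with Gld2 shRNA higher in 15 (24% of all genes). The median log2 difference was -0.09 over the members and -0.02 over all genes, and the members ran from -0.64 to 0.32.

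The 10 genes that fell came from 7 of the 8 groups of channel genes, and their falls were modest. They were Kcna3 and Kcnd1 among the classic voltage-gated pores, Kcnf1 and Kcng3 among the silent subunits, Kcnq3, Kcnh5, Kcnj6, Kcnk1 and Kcnk9, and Kcnt2 among the ion-activated channels. Their levels in the knockdown cultures were between 64.0% and 77.1% of the scrambled level. In each of the 10 both Gld2 shRNA cultures lay below both scrambled shRNA cultures.

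**Figure D1:**
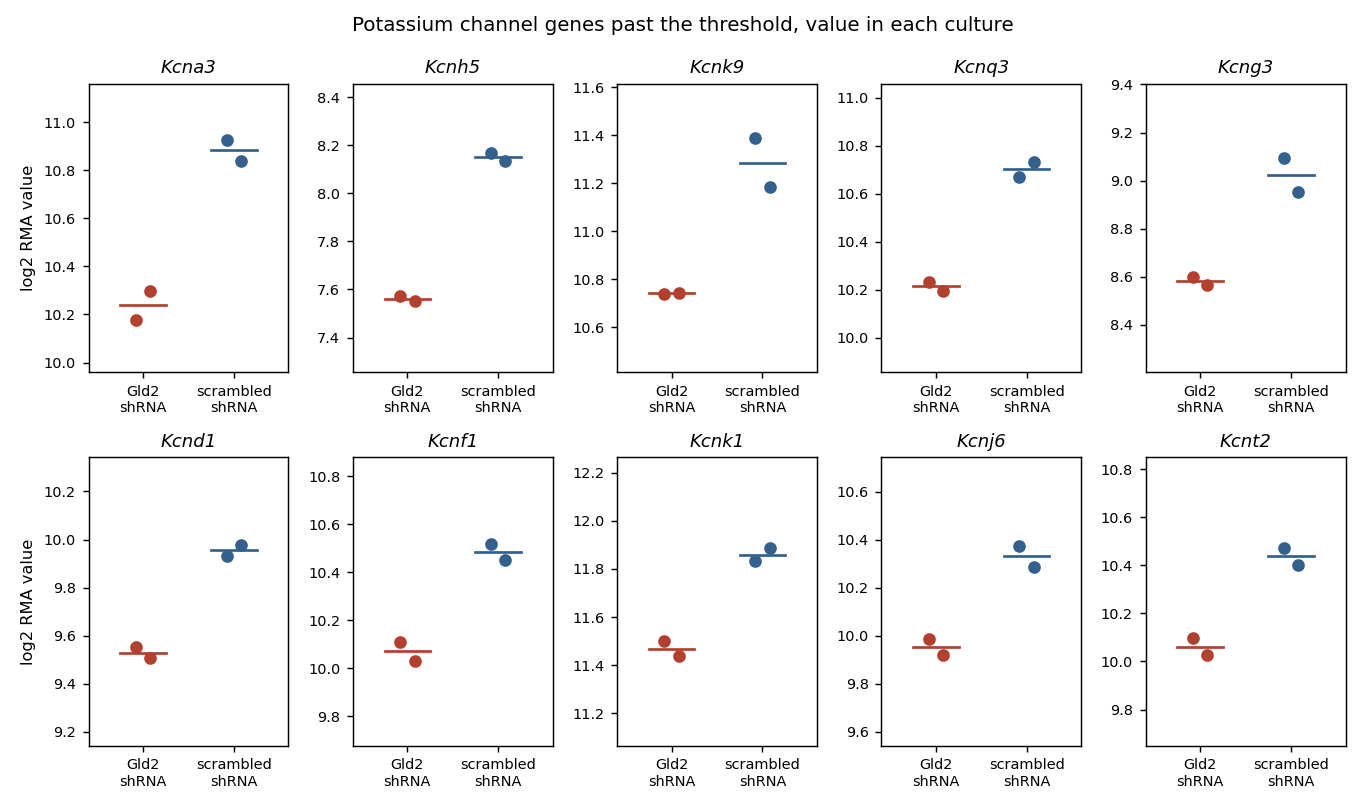
The log2 RMA value (vertical axis) of each of the 10 potassium channel genes past the threshold is plotted for the 2 Gld2 shRNA cultures (left, red) and the 2 scrambled shRNA cultures (right, blue), with a bar at each group mean. All axes span the same range of log2 units around the midpoint of the gene, and in every panel the red points lie below the blue ones.

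These calls depended on which culture was in the fit, and so did the number of genes called over the whole array. No member kept its call in every fit with 1 culture left out. Such a fit takes its spread from the other group alone, so effect sizes are given here. Without Gld2 shRNA replicate 1, then replicate 2, the median log2 difference over members was -0.07 and -0.07, against -0.01 and -0.02 over all genes. With scrambled shRNA replicate 1, then replicate 2, left out, it was -0.08 and -0.06, against -0.02 and -0.01. The sign of the 10 could not change in these fits, because in each gene both knockdown cultures lay below both control cultures.

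The promoters of the called genes with the largest falls that matched a RefSeq promoter entry are shown as a description. Not every called gene had such an entry, and whether promoter sequence had a part in the falls was not tested. Each runs from 250 bases before to 50 after the gene start in assembly GRCr8, written 5′ to 3′, and capitals mark a GC box (GGGCGG on either strand, where overlapping matches count separately).
Kcna3 promoter (GRCr8 chr2:197320074-197320373, + strand): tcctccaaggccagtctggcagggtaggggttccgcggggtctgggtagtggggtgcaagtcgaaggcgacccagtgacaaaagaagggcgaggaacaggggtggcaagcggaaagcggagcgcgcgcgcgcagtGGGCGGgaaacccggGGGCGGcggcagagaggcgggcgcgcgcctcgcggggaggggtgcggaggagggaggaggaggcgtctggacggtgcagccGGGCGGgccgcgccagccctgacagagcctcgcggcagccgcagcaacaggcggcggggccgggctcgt
Kcnh5 promoter (GRCr8 chr6:99643807-99644106, - strand): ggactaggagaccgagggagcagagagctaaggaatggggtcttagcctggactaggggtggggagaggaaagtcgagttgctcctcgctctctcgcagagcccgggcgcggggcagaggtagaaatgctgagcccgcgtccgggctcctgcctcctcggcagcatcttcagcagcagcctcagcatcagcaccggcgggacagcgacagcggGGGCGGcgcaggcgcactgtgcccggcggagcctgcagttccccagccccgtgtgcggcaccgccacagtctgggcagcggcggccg
Kcng3 promoter (GRCr8 chr6:16803592-16803891, + strand): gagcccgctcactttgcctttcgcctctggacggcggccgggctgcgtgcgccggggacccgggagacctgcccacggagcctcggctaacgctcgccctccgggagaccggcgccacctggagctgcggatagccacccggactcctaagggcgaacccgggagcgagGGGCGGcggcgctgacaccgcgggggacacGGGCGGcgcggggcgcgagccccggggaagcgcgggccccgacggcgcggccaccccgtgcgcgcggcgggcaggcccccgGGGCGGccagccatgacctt
The GC box was the most frequent of the 4 motifs searched. It was found in 5 of the 6 called members that had a 300-base promoter entry, in 24 of the 52 members not called (46.2%), and in 50.2% of the promoters of all tested genes. Across all 58 members with an entry it stood in 50%, and in 34.9% of all promoters in the table. The median GC content was 68.0% in the promoters of called members and 59.8% in those not called. The TATA box letters TATAAA stood in 2 of 58 members, Kcnj1 and Kcnj13, and in 11.8% of promoters of tested genes. A cyclic AMP response element (TGACGTCA) stood in 0 of 58 and in 2.46%. Part of the site of the neuronal repressor REST (TTCAGCACC) stood in 1, Kcnh6, and in 0.469%. All motifs were searched on both strands, and a match describes letters in the window and not a bound factor.

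Among the voltage-gated Kcna to Kcnd pores, 2 of 14 fell, 0 rose and 12 did not pass, with a group median of -0.23. At an unadjusted p under 0.05 (limma), 9 were lower (16.2% of all genes) and 1 was higher (9.24% of all genes). Kcna3 encodes a pore subunit of delayed rectifier channels that is also well known from lymphocytes and microglia. Kcna3 had 10.18 and 10.30 in Gld2 shRNA cultures, against 10.93 and 10.84 in scrambled shRNA cultures. It was 1.56-fold lower, the log2 difference being -0.64 (SE 0.0729), with an adjusted p of 0.0115 (limma). This was the largest fall among the 83 members. Summed microglia markers were slightly higher in the knockdown, at log2 values of 11.50 and 11.62 in Gld2 shRNA cultures and 11.40 and 11.44 in scrambled shRNA cultures, with 0 of 12 past the threshold.

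Kcnd1, a pore subunit of fast-inactivating A-type channels, had 9.55 and 9.51 in Gld2 shRNA cultures, against 9.93 and 9.98 in scrambled shRNA cultures. The log2 difference was -0.43 with an SE of 0.0613 (adjusted p = 0.0262, limma). Its relatives Kcnd2 and Kcnd3, also A-type pore subunits, were at -0.24 and -0.22. They did not pass (adjusted p = 0.120 and 0.134, limma), although their groups did not overlap.

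Other Kcna subunits did not pass. Kcna2 was at -0.33 (adjusted p = 0.0580, limma), just outside the threshold, with 11.54 and 11.49 in Gld2 shRNA cultures and 11.91 and 11.80 in scrambled shRNA cultures. Kcna1, which joins Kcna2 in axonal channels, was at 0.03 with a 95% confidence interval from -0.15 to 0.20, and its groups overlapped. The sign of Kcna1 changed in some settings. Kcna4, an inactivating pore subunit, was at -0.27 (adjusted p = 0.157, limma).

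The delayed rectifier gene Kcnb2 was at -0.23, and Kcnc1 and Kcnc2, which serve fast repetitive firing, were at -0.19 and -0.26, none past the threshold. The highest value of the group was that of Kcna10, at 0.25 (adjusted p = 0.0885, limma), with 7.88 and 7.92 in Gld2 shRNA cultures and 7.62 and 7.69 in scrambled shRNA cultures. Kcna10 passed as higher in 1 alternative, when genes under the 25th percentile of level were left out.

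**Figure D2:**
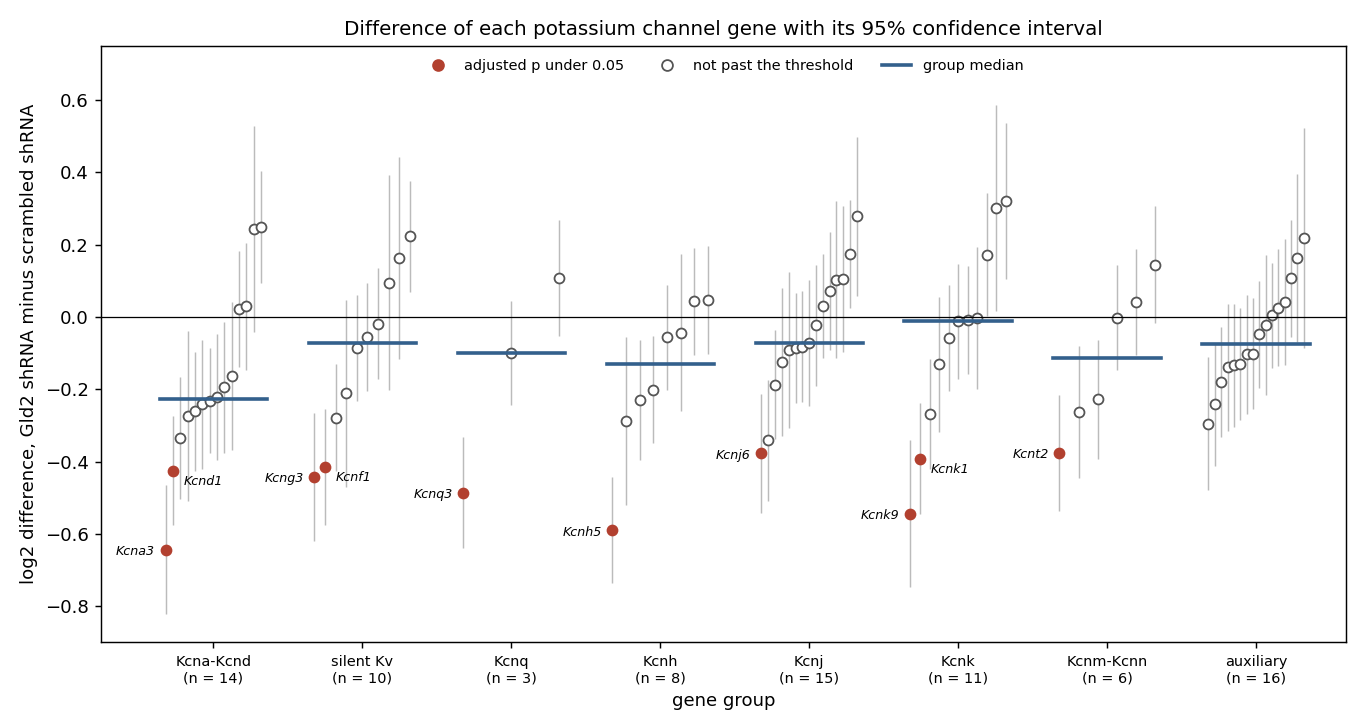
Each point is the log2 difference (Gld2 shRNA minus scrambled shRNA, vertical axis) of 1 of the 83 potassium channel genes, sorted within its group (horizontal axis), with its 95% confidence interval from limma. Filled points passed an adjusted p of 0.05 and blue bars are group medians, the lowest of which is -0.23 in Kcna to Kcnd.

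The silent subunits, which form no channel alone and modify delayed rectifier channels of the Kcnb family, had 2 falls among 10 members, 0 rises and a median of -0.07. Kcng3 had 8.60 and 8.57 in Gld2 shRNA cultures, against 9.10 and 8.95 in scrambled shRNA cultures, a log2 difference of -0.44 (adjusted p = 0.0353, limma). Kcnf1 had 10.11 and 10.03 in Gld2 shRNA cultures, against 10.52 and 10.45 in scrambled shRNA cultures, a log2 difference of -0.42 (adjusted p = 0.0327, limma). Both genes lay below the controls in each knockdown culture. Kcnv1, another silent subunit, was at -0.28 (adjusted p = 0.0656, limma), and Kcng4 had the highest value of the group, at 0.22 (adjusted p = 0.105, limma).

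Of the 3 measured Kcnq genes, whose channels carry the M-current that holds back repetitive firing, 1 fell. Kcnq3 had 10.23 and 10.20 in Gld2 shRNA cultures, against 10.67 and 10.73 in scrambled shRNA cultures. Its log2 difference was -0.49 with an SE of 0.0625 (adjusted p = 0.0181, limma), a level of 71.4% of the controls. Kcnq5, which can join Kcnq3 in a channel, was at -0.10 with a 95% confidence interval from -0.24 to 0.05, and Kcnq1, best known from heart and epithelia, was at 0.11. With the trend with gene length removed, Kcnq3 was at -0.33 and missed the threshold (adjusted p = 0.0557, limma).

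Of 8 Kcnh genes, 1 fell, 0 rose and 7 did not pass, with a median of -0.13. Kcnh5, of the ether-à-go-go subfamily, had 7.57 and 7.55 in Gld2 shRNA cultures, against 8.17 and 8.14 in scrambled shRNA cultures. The log2 difference was -0.59 (SE 0.0597), with the smallest adjusted p of the members (0.00771, limma). Kcnh1, the closest relative of Kcnh5, was at -0.23 (adjusted p = 0.116, limma). Kcnh7, of the ERG subfamily, and Kcnh8, of the ELK subfamily, were at -0.29 and -0.20, neither past the threshold. The highest value was that of Kcnh6, at 0.05.

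Of 15 inward rectifier genes (Kcnj), 1 fell, 0 rose and 14 did not pass, with a median of -0.07. Kcnj6 encodes a subunit of the channels that G proteins open downstream of inhibitory receptors. It had 9.99 and 9.92 in Gld2 shRNA cultures, against 10.37 and 10.29 in scrambled shRNA cultures, a log2 difference of -0.38 (adjusted p = 0.0417, limma). Its partner subunits did not pass. Kcnj3 was at -0.09 with a 95% confidence interval from -0.24 to 0.07, and Kcnj9 was at -0.07 with an interval from -0.25 to 0.10. With the length trend removed, Kcnj6 was at -0.23 (adjusted p = 0.0912, limma), and with cyclic loess at -0.27 (adjusted p = 0.0508, limma).

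Kcnj13, best known from choroid plexus and retinal pigment epithelium, was at -0.34 and just missed the threshold (adjusted p = 0.0544, limma). Kcnj10, the astrocyte channel that takes up potassium, was at -0.19 (adjusted p = 0.138, limma). Summed astrocyte markers stood at log2 values of 15.38 and 15.33 in Gld2 shRNA cultures and 15.31 and 15.33 in scrambled shRNA cultures, and 0 of 9 passed. The sum rests mostly on Gfap, Slc1a3, Aldoc and Aqp4. Of the 9 markers 6 were above 0 and 3 below, namely Fgfr3 (-0.19, unadjusted p = 0.0408, limma), Slc1a2 (-0.12) and Slc1a3 (-0.02). Kcnj5, a G protein-gated subunit best known from heart, had the highest value, at 0.28 (adjusted p = 0.135, limma), and Kcnj11, the pore of ATP-sensitive channels, was at 0.03.

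Of 11 leak channel genes (Kcnk), 2 fell, 0 rose and 9 did not pass, and the median was -0.01, against -0.02 over all genes. Kcnk9, an acid-sensitive leak channel, had 10.74 and 10.74 in Gld2 shRNA cultures, against 11.39 and 11.18 in scrambled shRNA cultures. Its log2 difference was -0.54 with an SE of 0.0834 (adjusted p = 0.0317, limma), and the control cultures differed more from each other than the knockdown cultures did. Kcnk1 had 11.50 and 11.44 in Gld2 shRNA cultures, against 11.83 and 11.89 in scrambled shRNA cultures, a log2 difference of -0.39 (adjusted p = 0.0345, limma). Kcnk3, the closest relative of Kcnk9, was at -0.06, and the mechanosensitive channel genes Kcnk2 and Kcnk10 were at -0.01 and -0.27, none past the threshold.

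The highest value of all members was that of Kcnk15, at 0.32 (adjusted p = 0.103, limma), with 8.10 and 8.27 in Gld2 shRNA cultures and 7.94 and 7.79 in scrambled shRNA cultures. Kcnk15 and Kcnk18 (0.30) were called higher without Gld2 shRNA replicate 1, together with Kcnj5, and with arrays centred on the median of all probe sets.

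Among the 6 channels opened by calcium or sodium (Kcnm, Kcnn and Kcnt), 1 fell, 0 rose and 5 did not pass, with a median of -0.11. Kcnt2, a sodium-activated channel, had 10.10 and 10.03 in Gld2 shRNA cultures, against 10.47 and 10.40 in scrambled shRNA cultures. The log2 difference was -0.38 (adjusted p = 0.0402, limma), and with the length trend removed it was -0.21 (adjusted p = 0.103, limma). The related Kcnt1 was at -0.23 and the large-conductance calcium-activated channel gene Kcnma1 at -0.26, neither past the threshold. The small-conductance genes Kcnn1 and Kcnn3, which shape the afterhyperpolarisation, were at -0.0020 and 0.04, with 95% confidence intervals from -0.15 to 0.14 and from -0.11 to 0.19. Kcnn4 was the highest of the group, at 0.14.

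None of the 16 auxiliary subunit genes passed the threshold in limma. At an unadjusted p under 0.05 there were 3 lower, near the 16.2% of all genes, and 0 higher (9.24% of all genes). Their median was -0.07. Kcnab2, a cytoplasmic beta subunit of Kcna channels, was lowest, at -0.29 (adjusted p = 0.0893, limma), with 10.58 and 10.47 in Gld2 shRNA cultures and 10.76 and 10.88 in scrambled shRNA cultures. Kcnab1 was at -0.10. Kcnmb4, the neuronal beta subunit of Kcnma1 channels, was at -0.24 (adjusted p = 0.109, limma), and Kcnmb2 was at -0.18. The highest value was that of Kcnmb1, at 0.22, whose groups overlapped.

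The calcium-binding Kcnip proteins, which bind the Kcnd pores, did not pass the threshold. Kcnip1, Kcnip2, Kcnip3 and Kcnip4 were at -0.13, 0.00, 0.11 and -0.05, with 95% confidence intervals that together ran from -0.30 to 0.27. Kcnip1 and Kcnip2 had a second probe set each, at 0.04 and 0.15, neither with an unadjusted p under 0.05, and for Kcnip1 its sign was opposite.

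**Figure D3:**
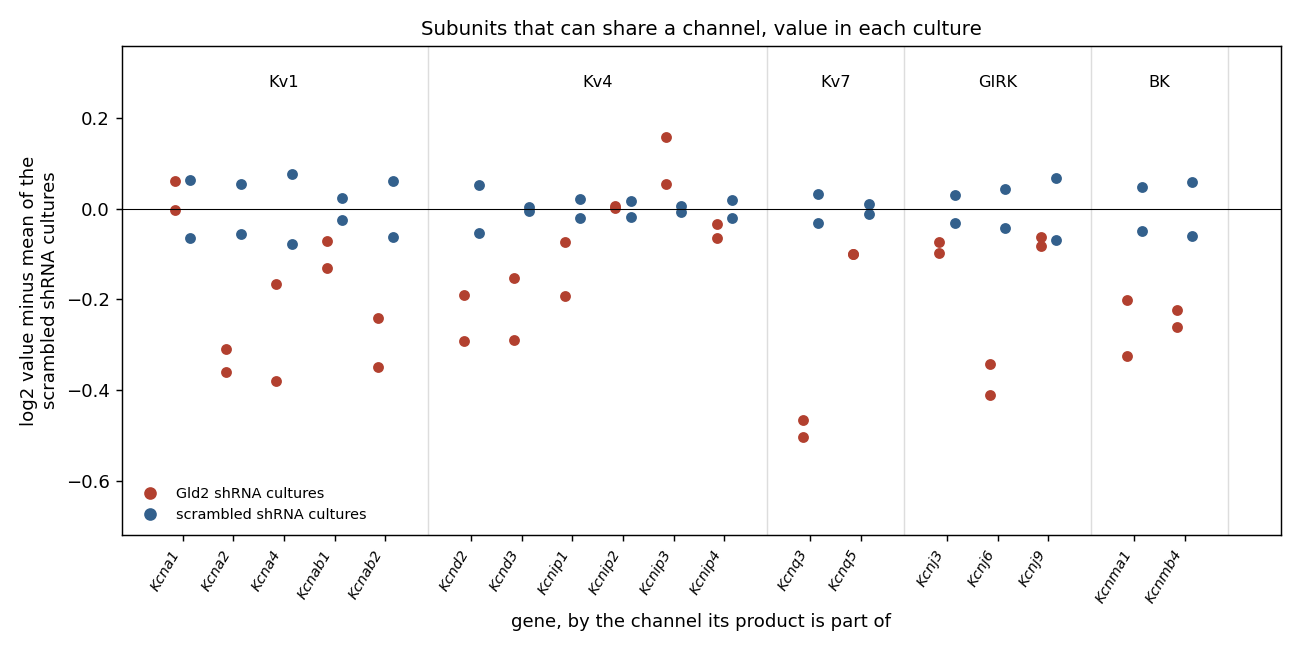
Values of genes whose products can share a channel are plotted in each culture as the log2 RMA value minus the mean of the scrambled shRNA cultures (vertical axis), with Gld2 shRNA in red to the left and scrambled shRNA in blue to the right of each gene. Kcnq3 and Kcnj6 lie lowest in their channels, and Kcnip2 lies at the control level beside Kcnd2 and Kcnd3. Kcna3 (-0.64) and Kcnd1 (-0.43), which passed the threshold, are not plotted.

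The knockdown cultures were also set 1 by 1 against the mean of the scrambled shRNA cultures. Both differences subtract the same mean, which by itself favours equal signs, so the counts are a description. Of the 83 members, 50 were lower in both Gld2 shRNA cultures (60.2%, with 43.3% of all 14497 genes), 21 were higher in both (25.3%, with 33.2% of all genes) and 12 had opposite signs. The medians over members were -0.07 in Gld2 shRNA replicate 1 and -0.07 in Gld2 shRNA replicate 2, with -0.02 and -0.01 over all genes. Replicate 2 lay farther from the control mean in 63 members (75.9%, with 68.3% of all genes) and replicate 1 in 20. Among the 10 called genes, 8 were farther in replicate 2 and 2 in replicate 1. Of the 21 members higher in both cultures, 20 were farther in replicate 2 (95.2%, with 67.6% over all genes).

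**Figure D4:**
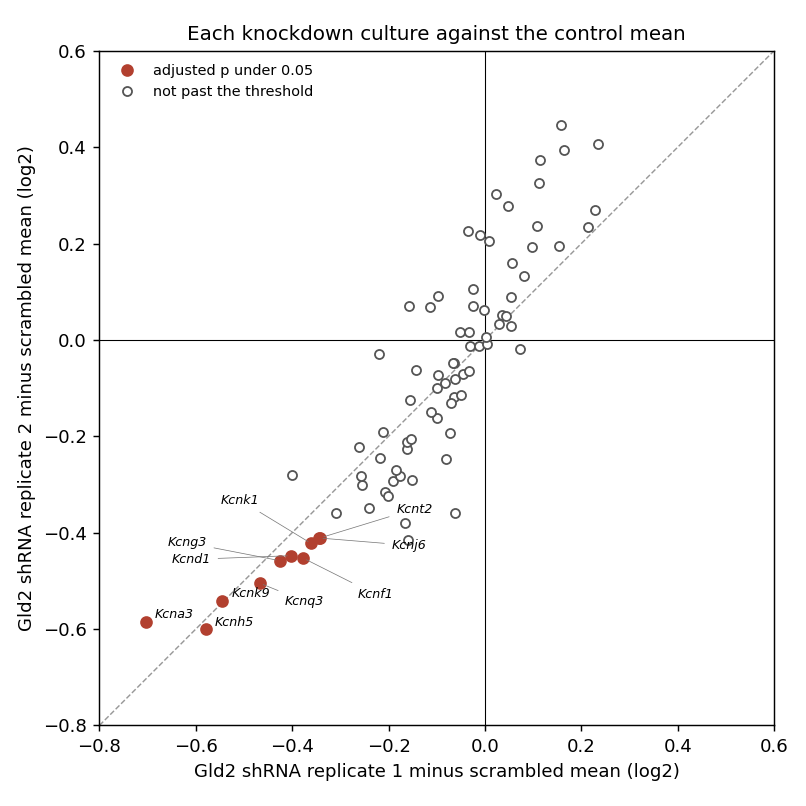
Each point is 1 of the 83 potassium channel genes, with Gld2 shRNA replicate 1 (horizontal axis) and Gld2 shRNA replicate 2 (vertical axis) each minus the mean of the scrambled shRNA cultures, in log2 units. The axes share the same control mean, the dashed line marks equal values, and the 10 filled genes past the threshold all lie below 0 on both axes.

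The differences varied with gene length, so the members were read beside genes of similar span. The median genomic span was 33250 bp over the members and 18043 bp over all genes with a span. In the longest quartile of genes, 5 of 35 members fell, where 5.69% of the genes did, and the medians were -0.18 for the members and -0.10 for all genes there. The next quartile had 2 of 19 members lower (1.96% of its genes) and the one below 1 of 21 (1.41%). In the shortest quartile 2 of 8 members fell, Kcna3 and Kcnf1, where 0.58% of the genes did. Across genes, which are not independent replicates and share the 4 arrays, Spearman's rho between span and difference was -0.27 over the 83 members and -0.32 over 14472 genes.

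By mean signal level, 0 of 13 members fell in the lowest quartile (0.441% of its genes) and 2 of 26 in the second (2.46%). There were 5 of 25 in the third (4.44%) and 3 of 19 in the highest (2.29%). The direction also varied with level. From the lowest quartile to the highest, the median differences were 0.04, -0.02, -0.19 and -0.14 over the members. Over all genes they were 0.06, 0.02, -0.10 and -0.03, with 33.9%, 46.2%, 75.4% and 59.6% of the genes below 0. The part of signal level in the falls and rises was not tested. After the length trend was removed from each array, 8 members were lower, with 1.81% of all genes lower, and 7 of them were among the 10. Kcnv1 joined, and Kcnq3, Kcnj6 and Kcnt2 dropped out. In that setting Kcna3 was at -0.71 (adjusted p = 0.00574, limma) and Kcnh5 at -0.43 (adjusted p = 0.0213, limma).

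**Figure D5:**
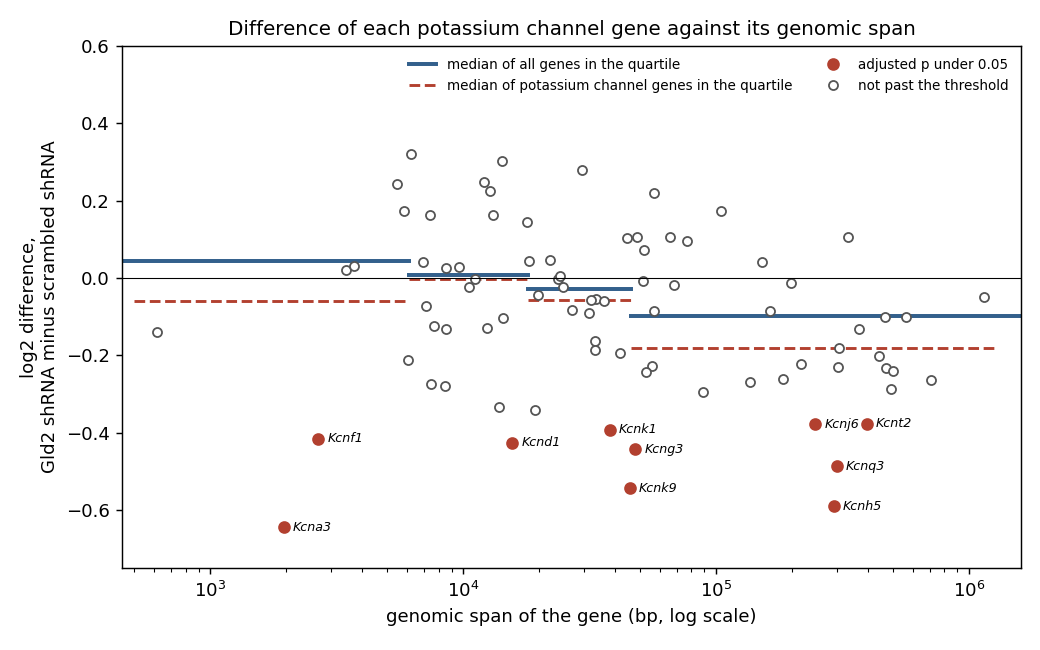
The log2 difference (Gld2 shRNA minus scrambled shRNA, vertical axis) of each of the 83 potassium channel genes is plotted against its genomic span (horizontal log axis, in bp). Dashed red lines are medians of the members and blue lines medians of all genes in each quartile of span, and called genes occur from the shortest to the longest quartile.

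Genes that anchor or regulate potassium channels were counted in the same way. Of 22 measured partners outside the Kcn symbols, 2 fell (2.41% of all genes were lower), 0 rose and 20 did not pass, with a median of -0.10. At an unadjusted p under 0.05, 8 partners were lower (16.2% of all genes) and 2 higher (9.24%). Cntn2, an adhesion protein that clusters Kcna channels beside nodes of Ranvier, had 9.60 and 9.58 in Gld2 shRNA cultures, against 10.09 and 9.95 in scrambled shRNA cultures, a log2 difference of -0.43 (adjusted p = 0.0385, limma). Dlg1, a scaffold that binds Kcna channels, had 9.59 and 9.47 in Gld2 shRNA cultures, against 9.99 and 9.90 in scrambled shRNA cultures, a log2 difference of -0.41 (adjusted p = 0.0417, limma). Amigo1, a partner of Kcnb channels, was at -0.32 (adjusted p = 0.0627, limma). The 3 measured HCN genes, Hcn2, Hcn3 and Hcn4, which carry the hyperpolarisation-activated current, were at -0.07, -0.06 and -0.13, none past the threshold.

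The cell type markers past the threshold were Prox1, Vip and Cnp. Of 7 excitatory neuron markers 1 fell, Prox1 of dentate granule cells (-0.59, adjusted p = 0.0259, limma), and of 8 inhibitory neuron markers 1 fell, Vip (-0.43, adjusted p = 0.0417, limma). Summed excitatory markers were at log2 values of 14.98 and 14.98 in Gld2 shRNA cultures and 15.07 and 15.05 in scrambled shRNA cultures. Summed inhibitory markers were at 14.90 and 14.84 in Gld2 shRNA cultures and 14.88 and 14.91 in scrambled shRNA cultures. This sum rests mostly on Sst (0.07) and Npy (0.04), while Gad2 was at -0.24 (adjusted p = 0.0853, limma) and Lhx6 at -0.15. Of 8 oligodendrocyte lineage markers 1 rose, Cnp (0.54, adjusted p = 0.0169, limma). Mbp (-0.29, adjusted p = 0.0798, limma) and Mog (-0.02) were the 2 below 0, neither past the threshold. The sums were 13.17 and 13.10 in Gld2 shRNA cultures and 13.02 and 12.99 in scrambled shRNA cultures. They rest mostly on Olig1, with group means of 12.17 and 12.15, and on Cnp itself, with 11.08 and 10.54 (Gld2 shRNA, then scrambled shRNA). Of 8 vascular markers 0 passed, with sums of 11.14 and 11.22 in Gld2 shRNA cultures and 11.19 and 11.19 in scrambled shRNA cultures. Pdgfrb came closest, at -0.34 (adjusted p = 0.0519, limma). Differences below 0 were found for 7 of 8 pan-neuronal, 6 of 7 excitatory and 4 of 8 inhibitory markers, and for 53.8% of all genes. The same held for 3 of 9 astrocyte, 2 of 8 oligodendrocyte lineage, 1 of 12 microglia and 3 of 8 vascular markers. No marker had a log2 value at 0, and the part of cell composition in the falls was not tested. In these bulk samples fewer cells of a type and less RNA per cell cannot be told apart.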

How the data were processed

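Poly(A) RNA of 4 rat hippocampal neuron cultures, 2 with Gld2 shRNA and 2 with scrambled shRNA, was measured on whole-transcript arrays. Deposited values were log2 signals from RMA (affy), per the submitters' processing notes, which give no versions or settings. The log2 scale was taken from their range, 3.23 to 14.3. Detection calls and batches were not among the sources, so signal over background was not assessed. Precision is limited by having 4 arrays.

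Of 28826 probe sets, 15209 had 1 gene symbol in the platform annotation, 306 several and 13311 none. Those with several, one of them for Kcnk5 and Kcnk16, named no gene. The probe set with the highest mean represented each of 14497 genes, of which 14472 matched RefSeq gene identifiers of GRCr8, with 0 symbols changed. Genomic spans and promoters come from RefSeq tables of that assembly. A full promoter entry was matched for 58 members by gene identifier.

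The groups were compared with lmFit and eBayes of limma 3.58.1 (R 4.3.3) in a two-sided test, adjusting p-values over all genes by Benjamini-Hochberg, with a threshold of 0.05 and 2 residual degrees of freedom, to which moderation added 3.96. Intervals are at 95%. On simulated data of this comparison with 14497 genes, the share of changed genes recovered was 8% for 1.25-fold changes, 72% for 1.5-fold changes, and 98% for both 2-fold and 4-fold changes. Members, lists and alternatives were chosen with earlier results of these data known. The genes named were all members past the threshold, the 3 with the smallest p and the extremes of each group, members known to share channels in hippocampal neurons, Tent2, all HCN genes, and the partners that were called or had the smallest p. Kcnj1, Kcnk18 and the cell type markers named, such as Gfap, Prox1, Vip and Cnp, were chosen after their values were seen.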

Additional observations from a re-analysis of the deposited data

How the results depend on the processing

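The count of 10 lower members was the same when probe sets of a gene were averaged and with the final digits of the titles as a replicate block, where the same 10 genes were called, and it was within 1.5 times with cyclic loess (11, of which 9 were among the 10, with Kcnj6 lost and Kcna2 and Kcnj13 gained) and the length trend removed (8, of which 7). A block would need paired cultures, which the labels do not state. Deviations of same-numbered cultures correlated at 0.143 over 14497 genes, in only 2 pairs. Lower members, all genes called and lower partners numbered 25, 2232 and 6 with a prior variance allowed to follow signal level. They numbered 16, 1297 and 4 without genes under the 25th percentile (1 member higher, Kcna10), and 20, 1596 and 6 without genes under the median. The counts were 3, 312 and 0 with median centring over genes, 2, 313 and 0 over all 28826 probe sets, and 0, 1 and 0 without moderation, where Tent2 (-1.28) lost its call at an adjusted p of 0.221 in limma's linear model. Centring on the median of all probe sets, added after the data were seen, gave 20, 1925 and 6, with 2 members higher. Leaving out 1 culture gave 0 to 22 lower members, 0 to 3 higher, 85 to 2689 genes called and 0 to 5 lower partners. In these fits the lone culture is assumed to vary like the other group. A gene whose groups do not overlap, as with each of the 10, cannot change sign in them. Over all genes, 349 were lower and 245 higher, against 378 and 370 with cyclic loess, 94 and 218 with median centring over genes, and 1367 and 558 with centring on all probe sets. Each of the 10 called genes stayed below 0 in every alternative that tested it, with adjusted p-values between 2.32e-07 and 0.341 in limma.

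Of the 83 members, 12 changed sign with cyclic loess, 12 with median centring, 2 with centring on all probe sets, 14 without the length trend and 3 to 6 when 1 culture was left out, and 0 of these were called in either setting. The values given here are those of the genes named in the text or checked for their family or role, HCN genes included. With cyclic loess, Hcn2 (0.00376), Hcn3 (0.0274), Kcnh6 (-0.0266), Kcnip4 (0.0577), Kcnk3 (0.0486) and Kcnn1 (0.103) changed. With median centring, Hcn3 (0.00859), Kcnip4 (0.0219), Kcnk2 (0.0577), Kcnk3 (0.0112) and Kcnn1 (0.0680) did, and with centring on all probe sets Kcnip2 (-0.0193). Without the length trend, Kcna1 (-0.00696), Kcnab1 (0.0752), Kcnip1 (0.0338), Kcnip4 (0.167), Kcnj11 (-0.0351), Kcnj3 (0.0433), Kcnk2 (0.126), Kcnn1 (0.0120) and Kcnq5 (0.0851) did. Leaving out 1 culture, Kcna1 ran from -0.0341 to 0.0924, Kcnip2 from -0.0143 to 0.0228, Kcnk2 from -0.0597 to 0.0352 and Kcnn1 from -0.0137 to 0.00972. The causes were not tested.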
